A study of Arabidopsis thaliana with 12 samples.

Results

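The comparison described here set RNA levels of atg5 seedlings against those of wild type in control medium (NM), gene by gene. It took the 19714 Arabidopsis thaliana genes listed in both deposited count tables, out of 20780 listed in either, and 5 of the 10 libraries with counts, 3 of wild type and 2 of atg5. Wild type was the accession Col-0. The libraries labelled atg5 came from SALK_020601C, an insertion line for ATG5. Seeds of both genotypes were germinated for 5 days in flasks of 125 ml that held 50 ml of liquid NM, which was Murashige and Skoog salts at 0.5X with 0.5% sucrose, at 21 °C with 16 h of light and 8 h of dark. The other 5 libraries (2 wild type, 3 atg5) came from water stress medium (WSM), which also held 2.5% glycerol and 0.5% alginic acid. They entered the estimate of spread and a second, separate comparison of the genotypes. The labels describe 12 samples, and the count columns cover 10. Libraries are named here by the number in their column, such as wild type 2.

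Autophagy carries cell contents to the vacuole in double-membrane vesicles and returns their building blocks to the cytosol. ATG5 is joined to ATG12, and the conjugate helps to attach ATG8 to lipid on the growing membrane. Plants without ATG5 germinate and grow in rich conditions, and are known for early senescence and for sensitivity to carbon and nitrogen starvation. A germinating seedling uses up the storage proteins and oil laid down in the seed, loses the protective LEA proteins of the dry state, and builds its photosynthetic apparatus.

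The 5 NM libraries held 18998348 to 23993704 counts. Genes in the nuclear rRNA regions and the organelle rRNA genes took 26.4% to 65.1% of them, with the highest share in wild type 2. Log2 levels correlated at 0.979 to 0.986 between the wild-type libraries across genes. The atg5 libraries correlated with each other at 0.932, less closely than either did with any wild-type library (0.934 to 0.945). Both genotypes held transcripts of photosynthetic leaf cells, root hairs, endodermis, stomatal lineage and dividing cells, which fits the labelled whole seedlings. PREP1, described further on, was nearly without counts in both atg5 NM libraries but not in 2 of the 3 atg5 WSM libraries. The totals of calls are also given without those 2. Values for single genes come from the fit with them unless stated otherwise, and some genes that missed the threshold there passed with the NM libraries alone. The protocol text read here breaks off before it says whether replicates were separate flasks, so p-values reflect the variation among these libraries alone, and that may be technical. Counts appear to take no account of strand: of 629 genes with at least 90% of their exons inside those of an opposite-strand gene and more than 100 counts, 623 had at most 1.1 times the counts of that partner. In bulk seedlings, fewer cells of a type and less RNA per cell cannot be told apart.

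The first sequences below show what lies upstream of 4 of the genes lower in atg5 and of the gene with the largest rise. Each is the 250 bases before the annotated gene start, written 5′ to 3′ on the strand of the gene (TAIR10.1, RefSeq). Capitals mark CATGCA, the core of the RY element that seed transcription factors bind, and ACGTG, the core of abscisic acid response elements, on either strand.

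PAP85 (chr3:8013942-8014191, minus strand): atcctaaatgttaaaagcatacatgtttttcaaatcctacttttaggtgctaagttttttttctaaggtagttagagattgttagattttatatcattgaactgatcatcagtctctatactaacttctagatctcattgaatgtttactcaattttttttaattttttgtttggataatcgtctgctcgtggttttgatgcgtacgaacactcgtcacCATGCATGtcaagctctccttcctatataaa

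AT2G21490 (chr2:9207126-9207375, minus strand): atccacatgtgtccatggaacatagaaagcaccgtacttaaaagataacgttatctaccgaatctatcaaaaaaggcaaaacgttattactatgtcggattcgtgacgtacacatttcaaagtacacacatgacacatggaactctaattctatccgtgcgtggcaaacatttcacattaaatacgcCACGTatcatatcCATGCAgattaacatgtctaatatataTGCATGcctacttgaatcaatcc

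AT3G54940 (chr3:20354101-20354350, plus strand): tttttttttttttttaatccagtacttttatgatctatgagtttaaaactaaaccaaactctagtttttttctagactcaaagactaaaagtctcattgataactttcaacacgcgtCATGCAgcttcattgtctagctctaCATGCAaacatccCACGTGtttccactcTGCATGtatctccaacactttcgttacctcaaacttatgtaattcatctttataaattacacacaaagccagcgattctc

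LEA4-5 (chr5:2090431-2090680, minus strand): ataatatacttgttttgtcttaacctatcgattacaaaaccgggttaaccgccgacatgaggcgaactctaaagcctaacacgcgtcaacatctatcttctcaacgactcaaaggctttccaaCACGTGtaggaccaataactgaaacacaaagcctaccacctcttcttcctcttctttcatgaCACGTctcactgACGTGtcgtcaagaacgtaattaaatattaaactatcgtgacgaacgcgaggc

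ACC2 (chr1:13545715-13545964, plus strand): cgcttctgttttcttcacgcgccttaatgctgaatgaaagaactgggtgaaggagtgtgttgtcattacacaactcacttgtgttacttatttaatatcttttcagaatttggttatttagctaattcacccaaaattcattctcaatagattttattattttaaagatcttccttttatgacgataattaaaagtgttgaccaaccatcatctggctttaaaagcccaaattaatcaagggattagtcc

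PAP85 holds 2 matches to CATGCA, AT3G54940 holds 3 together with 2 matches to ACGTG, and AT2G21490 holds 2 together with 1 match to ACGTG. LEA4-5 holds none of CATGCA and 4 matches to ACGTG, and ACC2 holds neither. CATGCA was found in the windows of 6 of the 11 genes lower in atg5 (54.5%) and of 1 of the 16 higher ones that had a window (6.25%), against 7.5% of 18683 protein-coding nuclear genes tested. ACGTG was found in 63.6% and 12.5% of them, against 23.9% of all. CACGTG, which contains ACGTG, was found in 36.4% and 12.5%, against 7.37%. A match is a description of these letters and not a bound site.

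In NM, 29 genes passed the test between the genotypes (edgeR, quasi-likelihood, adjusted p under 0.05 by Benjamini-Hochberg over all 19714 genes), which is 0.147% of those tested. Of these, 18 were higher in atg5 (0.0913%) and 11 were lower (0.0558%). The lower genes included PAP85 and OLEO2, the 2 called members of the dry-seed list, and also a second oleosin family gene and the LEA genes AT2G21490 and LEA4-5. The higher genes were led by ACC2, a plastid acetyl-CoA carboxylase. In all 29 the atg5 libraries lay apart from the wild-type ones, but so did those of 3733 genes on the higher side (18.9%) and 3751 on the lower side (19%). With DESeq2, 292 genes were higher (1.58% of the 18539 with an adjusted p) and 298 were lower (1.61%), and all 29 were among them. With the 5 NM libraries alone, edgeR called 240 genes, again with all 29, and without the atg5 WSM libraries that had PREP1 counts it called 494. Leaving out wild type 2, wild type 3 or wild type 4 left 2 calls each, both of them lower. Leaving out atg5 1 or atg5 3 left 1 atg5 library in NM, and some of the 29 were not called there.

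**Figure D1:**
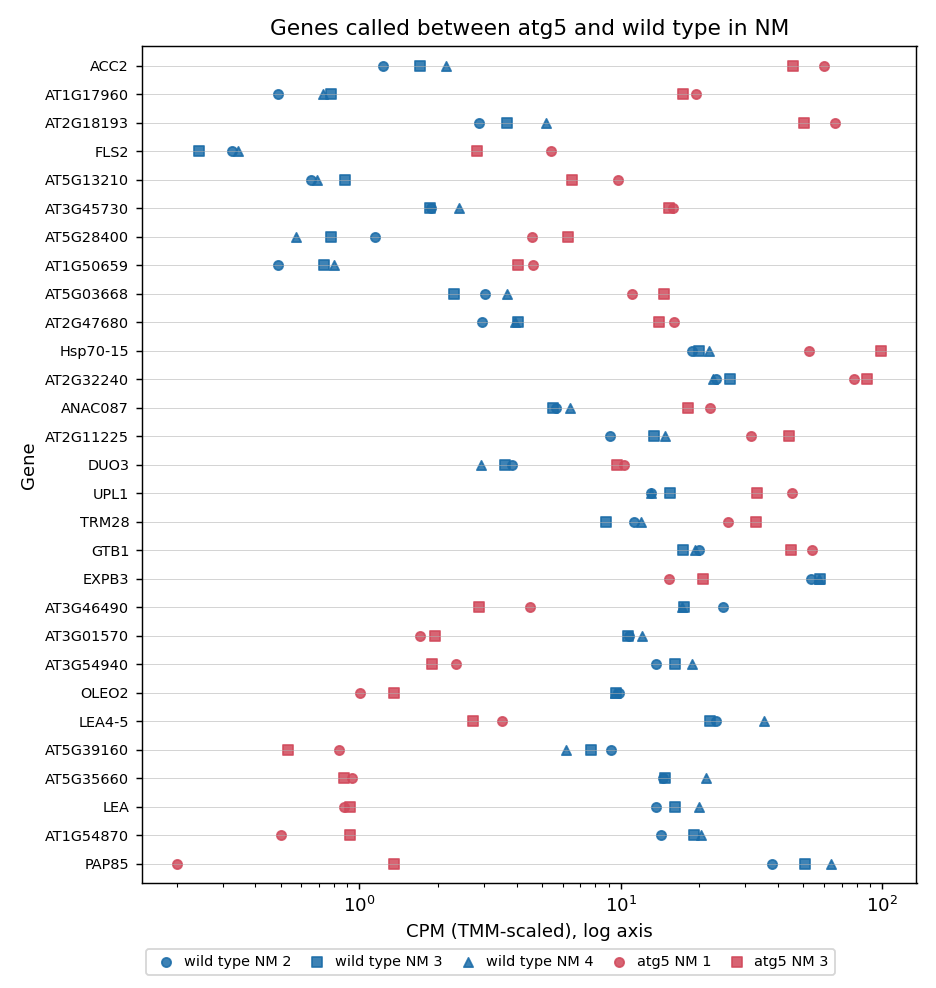
Levels of the 29 called genes in the 5 NM libraries, in CPM (counts scaled to the library's TMM-adjusted total) on a log axis, 1 symbol per library, blue for wild type and red for atg5. Genes are ordered by log2 fold change, from ACC2 at the top (4.93) to PAP85 at the bottom (-6.11), and in each row the red and blue symbols do not overlap.

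The storage protein gene PAP85, for a vicilin-like globulin (AT3G22640, chr3:8011724-8013941), had 38.0, 50.8 and 63.6 CPM (counts scaled to the TMM-adjusted total of each library) in the wild-type libraries and 0.201 and 1.36 in atg5. Every atg5 value was far below every wild-type value, and the atg5 libraries differed from each other by several fold. Its log2 fold change was -6.11 ± 0.79 (SE), or 69.1-fold lower, with an adjusted p of 0.0204 in edgeR. AT5G39160 shares the cupin fold by annotation but is on no storage list. It had 9.16, 7.67 and 6.20 CPM in wild type and 0.837 and 0.534 in atg5, a log2 fold change of -3.45 ± 0.48 (edgeR adjusted p = 0.0215).

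Oleosins coat the oil bodies of seeds. OLEO2 (AT5G40420) had 9.82, 9.57 and 9.53 CPM in wild type and 1.00 and 1.36 in atg5, so that the libraries within each genotype were close together and the genotypes far apart. Its log2 fold change was -3.03 ± 0.41 (edgeR adjusted p = 0.0207). The oleosin family gene AT3G01570 had 10.8, 10.7 and 12.1 CPM in wild type and 1.71 and 1.94 in atg5, a log2 fold change of -2.62 ± 0.35 (edgeR adjusted p = 0.0207).

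LEA proteins protect cells during drying. The dehydrin AT2G21490 (chr2:9205990-9207125) had 13.7, 16.1 and 20 CPM in wild type and 0.871 and 0.922 in atg5. The log2 fold change was -4.21 ± 0.51 (edgeR adjusted p = 0.0163). LEA4-5 (AT5G06760, chr5:2089445-2090430) had 23.1, 21.9 and 35.3 CPM in wild type and 3.52 and 2.72 in atg5, with a log2 fold change of -3.10 ± 0.32 (edgeR adjusted p = 0.00765). The smallest adjusted p of all genes, 0.00239 in edgeR, was that of AT1G54870, annotated as an NAD(P)-binding Rossmann-fold protein, at 14.3, 19.0 and 20.2 CPM in wild type and 0.502 and 0.922 in atg5. AT1G54870 and LEA4-5 were the 2 genes called whichever NM library was left out.

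The remaining lower genes were of other kinds. AT5G35660, a glycine-rich protein, had a log2 fold change of -4.21, AT3G54940, a papain-type cysteine protease, one of -2.92, and AT3G46490, a 2-oxoglutarate-dependent oxygenase, one of -2.41. EXPB3, a beta-expansin that loosens cell walls, was the most abundant of the 11, at 53.2, 58.1 and 57.3 CPM in wild type and 15.3 and 20.6 in atg5. Its log2 fold change of -1.65 ± 0.21 (edgeR adjusted p = 0.0204) was the smallest of the 11.

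The list of 16 dry-seed genes showed the same side for nearly all members. Their log2 fold changes had a median of -3.26, against 0.03 over all genes, and 15 of 16 were negative. Members of the list that passed the edgeR test were PAP85 and OLEO2, and 9 members were lower in DESeq2, beside 1.61% of all genes. In 12 the atg5 libraries lay below all wild-type ones, beside 19% of all genes. The summed level was 1644 to 2309 CPM in the wild-type libraries and 20.9 and 70.0 CPM in the atg5 ones, and no member was at 0 in any NM library.

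CRA1 and CRC, both 12S cruciferins and the most abundant storage transcripts here, missed the edgeR threshold despite the largest differences of the list; they, EM6 and OLEO1 were chosen after their values were seen. CRA1 had 978, 1241 and 1423 CPM in wild type and 4.15 and 24.7 in atg5, a log2 fold change of -6.40 ± 1.37 (edgeR adjusted p = 0.0932, DESeq2 6.59e-05). CRC had 514, 626 and 677 CPM in wild type and 2.91 and 11.8 in atg5 (log2 -6.37 ± 1.2, edgeR adjusted p = 0.0822). For both, atg5 3 lay several fold above atg5 1 and still far below wild type.

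The LEA protein EM6 had 14.6, 14.1 and 15.8 CPM in wild type and 1.07 and 1.26 in atg5, and the oleosin OLEO1 had 15.9, 20.1 and 17.37 against 0.603 and 1.84. Members that overlapped between the genotypes were OLEO3, SESA1, SESA3 and SESA4, all below 13 CPM in each NM library. CATGCA was found upstream of 13 of the 16 list members (81.2%) and ACGTG upstream of 10 (62.5%).

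ACC2 (AT1G36180, chr1:13545965-13558600) had the largest rise. It encodes a plastid acetyl-CoA carboxylase that makes malonyl-CoA for fatty acids beside the enzyme whose accD subunit is plastid-encoded. Its level was 1.23, 1.71 and 2.14 CPM in wild type and 60.1 and 45.5 CPM in atg5, so that both atg5 libraries stood more than an order of magnitude above wild type. The log2 fold change was 4.93 ± 0.59, or 30.4-fold (edgeR adjusted p = 0.0163). Its neighbour ACC1, the cytosolic form of the enzyme, had 82.9, 87.6 and 94.1 CPM in wild type and 115 and 211 in atg5, and did not pass (edgeR adjusted p = 0.176).

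AT1G17960, annotated as a threonyl-tRNA synthetase, had 0.491, 0.782 and 0.727 CPM in wild type and 19.4 and 17.3 in atg5, a log2 fold change of 4.74 ± 0.67 (edgeR adjusted p = 0.0237). AT2G18193, a P-loop ATPase by annotation, had 2.86, 3.66 and 5.17 CPM in wild type and 65.9 and 50.2 in atg5 (log2 3.88 ± 0.58, edgeR adjusted p = 0.0292). In both genes the atg5 values were close to each other and far above wild type.

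FLS2, the receptor kinase for bacterial flagellin, had 0.327, 0.244 and 0.344 CPM in wild type and 5.43 and 2.82 in atg5, with a log2 fold change of 3.74 ± 0.56 (edgeR adjusted p = 0.0292). These are low levels. ANAC087, a NAC transcription factor linked to programmed cell death in the root cap, had 5.64, 5.52 and 6.39 CPM in wild type and 21.9 and 18.0 in atg5 (log2 1.77 ± 0.20, edgeR adjusted p = 0.0133, the smallest among the higher genes).

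Genes of protein quality control, transcription and trafficking made up part of the rest. Hsp70-15, a cytosolic chaperone of the HSP70 superfamily, had 18.8, 19.9 and 21.8 CPM in wild type and 52.5 and 99.2 in atg5 (log2 1.91). UPL1, a HECT-type ubiquitin ligase, had 13.0, 15.4 and 13.0 against 45.2 and 33.3 (log2 1.5), and GTB1, an SPT6-like transcription elongation factor, had 20, 17.2 and 19.3 against 53.8 and 44.9 (log2 1.39). Each of them was higher in both atg5 libraries than in any of the 3 wild-type ones.

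AT2G32240, annotated as an early endosome antigen, had a log2 fold change of 1.78, and DUO3, a regulator of the pollen germline, one of 1.54. AT5G13210 had one of 3.44, AT3G45730 of 2.91, AT5G28400, an embryo defective protein by annotation, of 2.74, and AT2G47680, a CCCH zinc finger helicase, of 2.03. The remaining 4 calls are less certain because of shared exons. TRM28 (log2 1.46) and AT5G03668 (2.09) overlap each other on opposite strands, AT1G50659 (2.64) shares 89.5% of its exons with AT1G50660, and AT2G11225 (1.60) shares 100% with AT2G11240.

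Fold changes in NM moved with the exonic length of the gene. The median log2 fold change was -0.26 in the shortest of 5 equal bins of genes (up to 1108 bases) and 0.38 in the longest (from 2573 bases), with a Spearman correlation of 0.44 across genes, which are not independent replicates. Of the 18 higher genes 10 were in the longest bin, where none of the lower genes was, and the median exonic length was 2866 bases in the higher genes and 1279 in the lower. With length as an offset in each library, 10 higher and 10 lower genes were called. ACC2 (4.1), ANAC087 (1.85), AT1G17960 (4.82) and 10 of the 11 lower genes were still called, and UPL1 (log2 0.46), GTB1 (0.75), Hsp70-15 (1.71) and DUO3 (1.1) were not. The part of length in these calls was not tested further.

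The WSM libraries gave a contrast of the same genotype labels with no shared library. As the PREP1 counts differ among the libraries labelled atg5, it cannot be told from the labels whether all of them came from the same seed stock, and the WSM contrast is read with that limit. There, 7 genes were called (edgeR, 0.0355%), and 6 of them were among the 11 genes lower in NM: PAP85, AT1G54870, AT5G35660, OLEO2, AT3G54940 and AT3G01570. All 11 had a negative log2 fold change in WSM, with a median of -2.90 beside -3.10 in NM. Of the 18 higher genes 10 were positive in WSM, none was called, and their median log2 was 0.20 beside 2.06 in NM. The highest WSM values among them were those of AT5G13210 (2.21), ACC2 (2.11) and AT3G45730 (2.07).

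**Figure D2:**
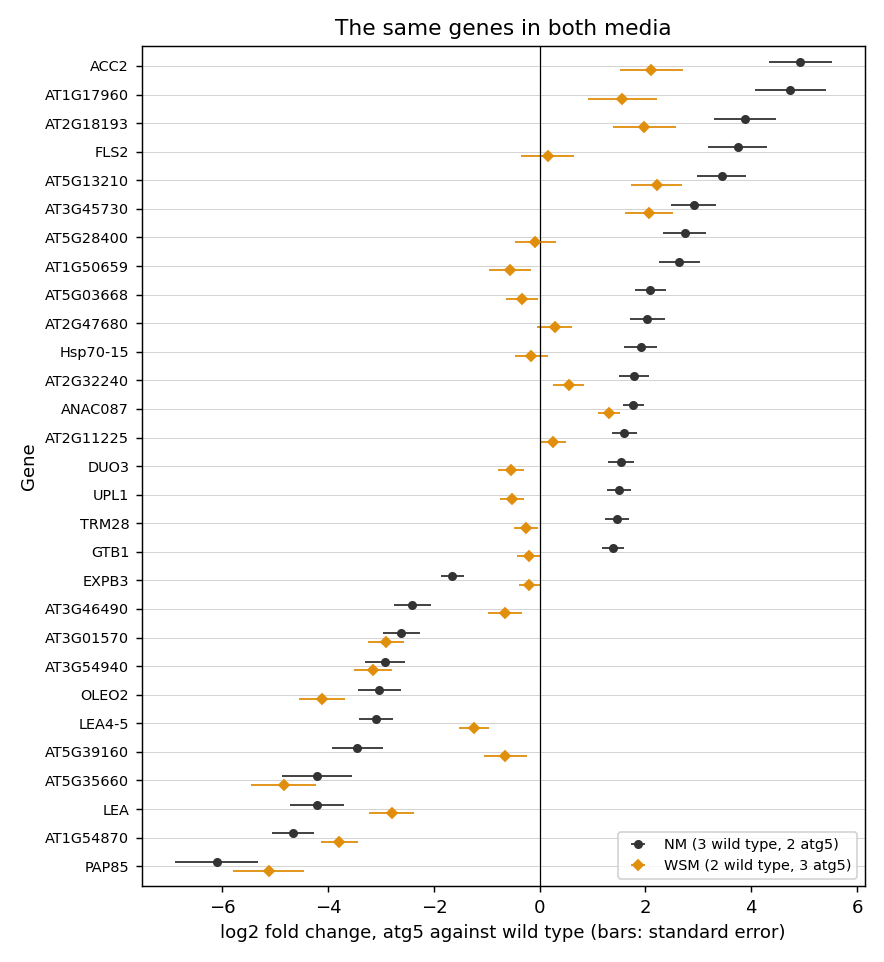
Log2 fold change of atg5 against wild type for the 29 genes called in NM, in NM (circles, 3 wild-type and 2 atg5 libraries) and in WSM (diamonds, 2 and 3 libraries), with standard errors as bars. The lower genes stay left of 0 in both media, and the higher ones have a median of 0.20 in WSM, with FLS2 at 0.15.

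The difference between the genotype effects in the 2 media was tested in the same fit, and no gene passed (edgeR, 0%), with a smallest adjusted p of 0.0687. At an unadjusted p under 0.05 there were 2971 genes (15.1%), and DESeq2 called 408. Of the 18 higher genes 15 had an unadjusted p under 0.05 for this difference, and of the 11 lower genes 5 had. All 29 were selected for their NM effect, which is part of this difference, so these counts are a description and cannot be read against the 15.1%. The smallest among the 29 was that of UPL1, with log2 fold changes of 1.5 in NM and -0.52 in WSM (edgeR adjusted p = 0.179). EXPB3 (-1.65 and -0.20) and LEA4-5 (-3.10 and -1.24) had the smallest among the lower genes (edgeR adjusted p = 0.183 and 0.194).

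ATG5 itself (AT5G17290) had 29.0, 27.5 and 30.8 CPM in the wild-type NM libraries and 20.5 and 27.1 in those labelled atg5. The atg5 values lay just below wild type, with a log2 fold change of -0.29 ± 0.20 that did not pass (edgeR adjusted p = 0.56). Reads summed over all of the gene do not reveal an insertion, and 27.6% of its exons overlap AT5G17280. None of the 40 genes tested within 100 kb of ATG5, with ATG5 counted among them, was called in the fit of all libraries.

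Neighbouring genes on chromosome 3 set the atg5 NM libraries apart more sharply. PREP1 (AT3G19170, chr3:6625377-6632164), a protease that degrades transit peptides in plastids and mitochondria, had 753, 1449 and 1872 counts in the wild-type libraries and 2 and 0 in atg5. PARC6 (AT3G19180, chr3:6632637-6637292), which takes part in plastid division, had 77, 165 and 201 counts in wild type and 0 in both atg5 libraries, at least 50.5-fold lower at a floor of 3 counts per library. ATG2 (AT3G19190, chr3:6639639-6648870), which moves lipid to the growing autophagic membrane, had 5.73, 3.13 and 4.59 CPM in wild type and 31.1 and 23.8 in atg5.

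None of the 3 passed in the fit of all libraries (edgeR adjusted p = 0.0966, 0.116 and 0.0822), and all passed with the NM libraries alone (0.000242, 0.00155 and 0.00655). In WSM the atg5 libraries were not alike: PREP1 had 349, 4 and 2412 counts in atg5 1, 2 and 3, beside 2057 and 2668 in wild type. ATG2 was highest in atg5 2, the WSM library with almost no PREP1, at 26.6 CPM, against 8.67 and 6.32 in the other two. ACC2 had 23.1 CPM there, against 8.67 and 4.01. The part of this locus in the other differences was not tested. None of the 39 genes tested within 100 kb of PREP1 was called in NM in the fit of all libraries. They include PREP1, PARC6 and ATG2 themselves, so this count does not show that the region was unchanged.

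**Figure D3:**
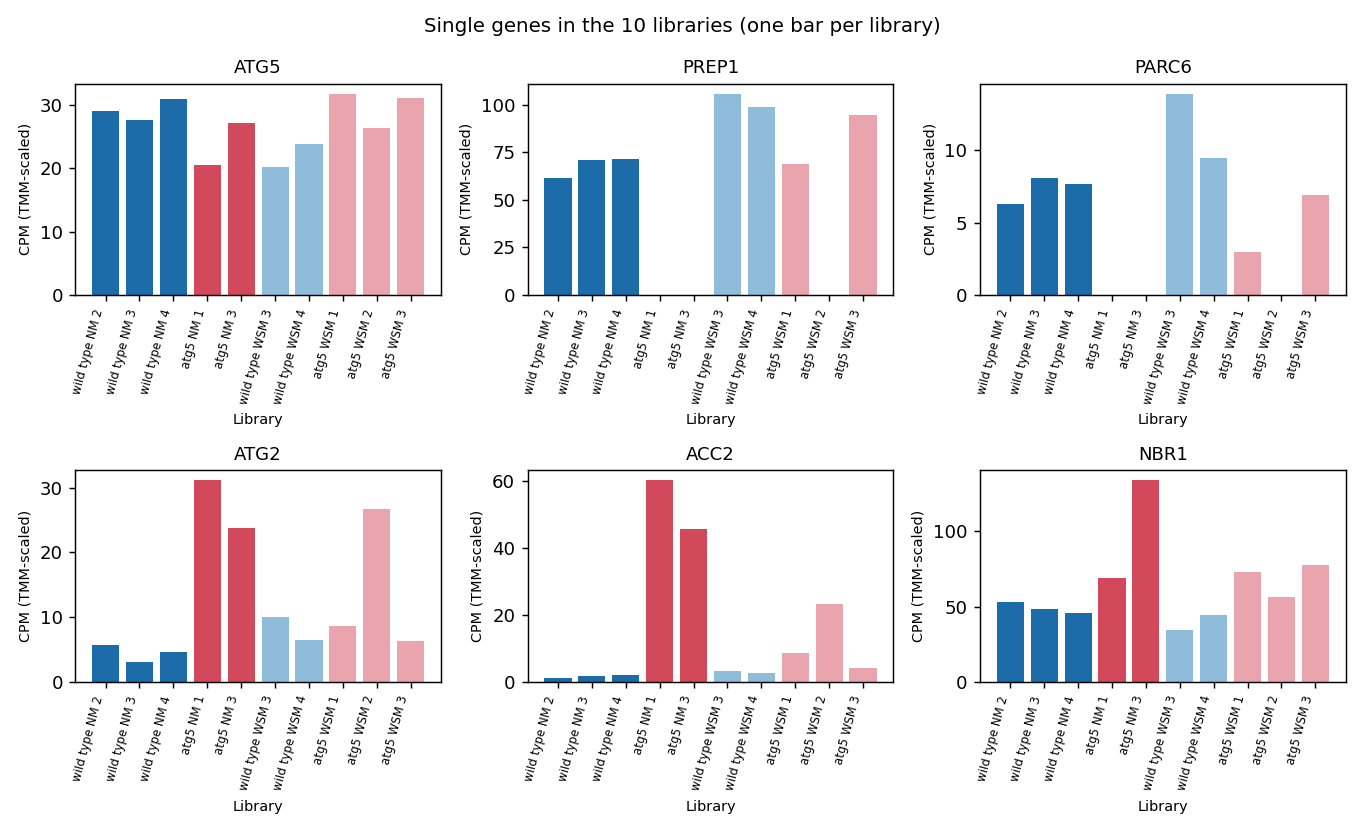
Levels of ATG5, PREP1, PARC6, ATG2, ACC2 and NBR1 in each of the 10 libraries, in CPM on linear axes from 0, 1 bar per library, dark for NM and pale for WSM, blue for wild type and red for atg5. PREP1 is near 0 in both atg5 NM libraries and in 1 of 3 atg5 WSM libraries, and ATG2 and ACC2 are high in those libraries.

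Of the 31 autophagy genes used, out of 39 entries, none was called in edgeR. DESeq2 called 3 higher, ATG2, NBR1 and ATG18H, and 0 lower, beside 1.58% and 1.61% of all genes. In 7 the atg5 libraries lay above wild type (18.9% of all genes) and in 8 below (19%). Entries for ATG1A, ATG1B, ATG1C, ATG4A, ATG4B, ATG13B and ATG16 were left out because the annotation did not pair locus and symbol, so these counts do not cover them. The median log2 fold change of the list was -0.07, with 13 positive and 18 negative. NBR1, a receptor that carries ubiquitinated cargo and is itself degraded by autophagy, had 53.3, 48.3 and 45.5 CPM in wild type and 68.9 and 134 in atg5. Both atg5 libraries were above wild type, by a log2 of 1.05 ± 0.28 (edgeR adjusted p = 0.149). ATG18H, a lipid-binding protein of the ATG18 family, had 9.73, 10.9 and 9.22 CPM in wild type and 16.7 and 16.8 in atg5. ATG8F, one of the ubiquitin-like ATG8 proteins, had 33.9, 27.1 and 28.0 against 15.8 and 19.3 (log2 -0.76 ± 0.23, edgeR adjusted p = 0.191).

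A list of 14 genes for ACC2, the PREP1 locus, plastid chaperones and plastid-to-nucleus signalling had ACC2 as its only edgeR call. Its most extreme members were PREP1 and PARC6, whose counts are given with that locus. These and CPN10 were the 3 lower in DESeq2, beside 1.61% of all genes. CPN10, a plastid co-chaperonin, had 67.8, 58.9 and 58.6 CPM in wild type and 40.6 and 37.7 in atg5, and GLK1, an activator of photosynthesis genes, had 20.4, 29.5 and 23.57 against 10.2 and 18.1. The median of the list was 0.14.

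Nuclear photosynthesis genes were lower in atg5 almost throughout, but none passed the edgeR test in the fit of all libraries. The 39 genes encode antenna proteins, photosystem subunits, plastocyanins, the Rieske protein PETC, Rubisco small subunits and activase, and the Calvin cycle enzymes GAPA, GAPB and PRK. Of these, 38 had atg5 libraries below every wild-type library (19% of all genes did) and a negative log2 fold change, with a median of -1.01. DESeq2 called 17 lower (1.61% of all genes) and none higher. Their summed level was 56595 to 63272 CPM in wild type and 29655 and 32224 in atg5.

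The antenna protein gene LHCB1.3 had 7927, 8920 and 8383 CPM in wild type and 3351 and 4037 in atg5 (log2 -1.19 ± 0.43, edgeR adjusted p = 0.246). PSAK, a photosystem I subunit with the largest fold of the list, had 683, 737 and 719 against 250 and 238 (log2 -1.55 ± 0.35, edgeR adjusted p = 0.103). PETE1, a plastocyanin that carries electrons between the photosystems, had 150, 165 and 176 against 55.2 and 66.8. With the NM libraries alone, PSAK and PETE1 passed (edgeR adjusted p = 0.0146 and 0.0197) and LHCB1.3 did not (0.0791). In all 3 genes the libraries within a genotype were close and the genotypes well apart. The exception among the 39 was GAPA, a Calvin cycle dehydrogenase, whose values overlapped.

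The pattern was not seen in WSM, where the median log2 of these 39 genes was 0.02. The unadjusted p for the difference between media (edgeR) was under 0.05 for 13 of these 39 genes, beside 15.1% of all genes. The NM effect is part of this difference and the lists were chosen with earlier results known, so the count is a description. With the length offset the NM median was -0.85. Clock genes also set daily levels of antenna genes. The 15 genes of the clock list had a median of 0.57 and included the antenna gene LHCB1.1 (CAB2), also among the 39, at -1.33. GI, an evening clock gene, had 10.8, 12.6 and 12.2 CPM in wild type and 19.7 and 40.5 in atg5 (edgeR adjusted p = 0.103). LHY, a morning gene, had 105, 95.4 and 107 against 50.2 and 238. The part of the clock in the lower photosynthesis levels was not tested.

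Plastid-encoded genes had the highest list median, 2.32, with 22 of 23 positive, yet no member had atg5 libraries apart from wild type and none was called in edgeR. The level rested on atg5 1. Their sum was 500.1 to 1017 CPM in wild type, 3771 in atg5 1 and 287 in atg5 3, the highest and the lowest of the 5. The polymerase subunit gene rpoC2 had 3.52, 7.38 and 5.47 CPM in wild type and 120 and 5.49 in atg5, and psaA, for a photosystem I core protein, 17.9, 22.7 and 9.41 against 227 and 13.3. For rbcL, the Rubisco large subunit, the values were 527, 501 and 256 against 1525 and 137.

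**Figure D4:**
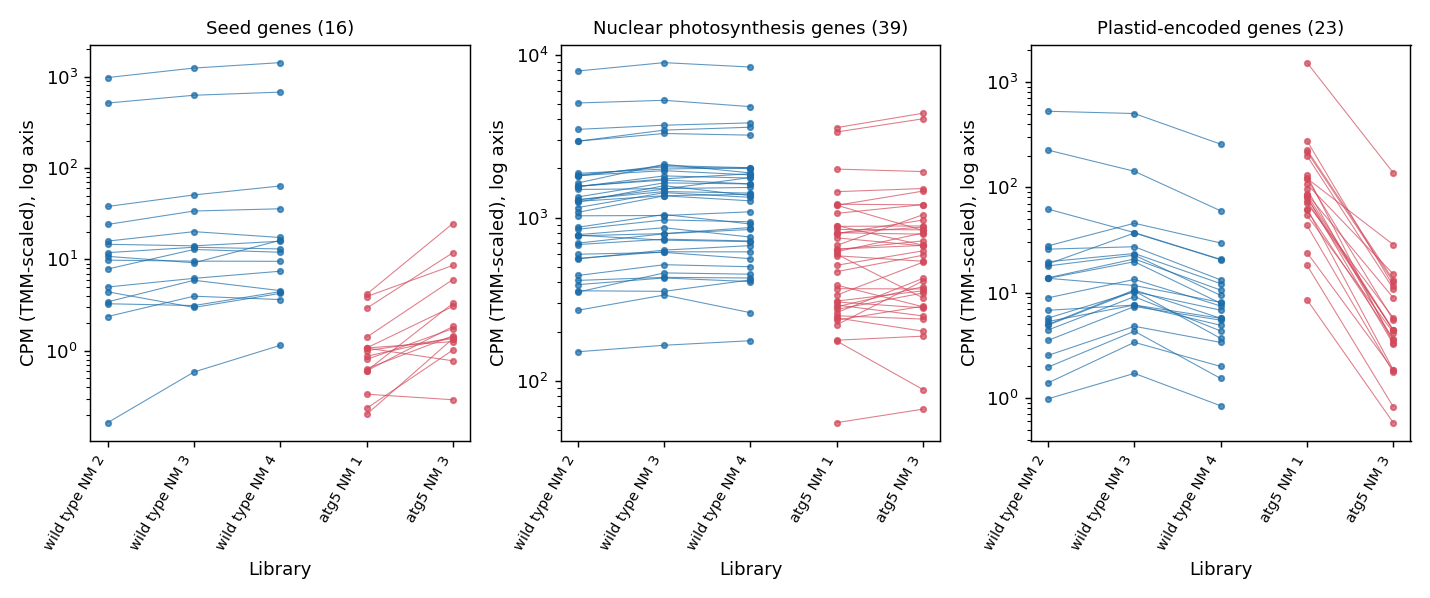
Levels of each member of the dry-seed list (16 genes), the nuclear photosynthesis list (39) and the plastid-encoded list (23) in the 5 NM libraries, in CPM on log axes, 1 line per gene, joined within a genotype. Of the seed genes 12 and of the nuclear photosynthesis genes 38 are lower in both atg5 libraries than in any wild-type one, and plastid-encoded genes are high in atg5 1 and low in atg5 3.

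Stress lists gave no edgeR call in NM in the fit of all libraries. The 16 hypoxia genes had a median log2 of 0.87, with 12 positive, 7 with atg5 libraries above wild type (18.9% of all genes were) and 1 called higher in DESeq2 (1.58% of all). The list rested on atg5 3: its summed level was 472 to 638 CPM in wild type, 429 in atg5 1, below every wild-type library, and 1894 in atg5 3. ADH1, the alcohol dehydrogenase of fermentation, had 17.3, 9.92 and 15.5 CPM in wild type and 74.1 and 689 in atg5 (log2 4.75 ± 1.13, edgeR adjusted p = 0.119). With the NM libraries alone ADH1 passed (edgeR adjusted p = 0.0373). PDC1, the pyruvate decarboxylase before it, had 9.08, 9.87 and 16.7 against 33.4 and 202, and SUS4, a sucrose synthase, 4.42, 1.47 and 3.21 against 11.1 and 62.8. In each of the 3 genes atg5 3 was several fold above atg5 1. HRA1, a repressor of the hypoxia response, ran the other way, at 51.0, 52.6 and 117 CPM in wild type and 10.9 and 39.3 in atg5.

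The 17 heat shock genes had a median of 0.48, with 8 above wild type in both atg5 libraries, beside 18.9% of all genes. HSP90.1, a stress-inducible cytosolic chaperone, had 19.1, 21.5 and 23.3 CPM in wild type and 70.6 and 84.8 in atg5 (log2 1.87 ± 0.50, edgeR adjusted p = 0.149), and HSP70 had 82.1, 94.7 and 86.3 against 176 and 197. The 20 genes of endoplasmic reticulum chaperones and stress had a median of 0.34, with 9 above wild type in both, beside the same 18.9%. BIP1, the lumenal HSP70, had 168, 138 and 189 CPM against 285 and 360 (log2 0.97 ± 0.24, edgeR adjusted p = 0.134). CNX1, a lectin chaperone, had 178, 146 and 165 against 273 in both atg5 libraries, and NAC103, a transcription factor of the unfolded protein response, had 1.31, 1.95 and 1.42 against 11.1 and 7.72. SHD, the lumenal HSP90 and the most abundant of the list, overlapped between the genotypes at 349 to 415 CPM in wild type and 286 and 468 in atg5.

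The 30 genes of abscisic acid and water deficit had a median of 0.21. They gave 2 higher and 3 lower in DESeq2, beside 1.58% and 1.61% of all genes. RAB18, a dehydrin induced by abscisic acid, had 23.2, 26.3 and 32.7 CPM in wild type and 1.44 and 3.01 in atg5 (log2 -3.64 ± 0.72, edgeR adjusted p = 0.0822), and RD29B had 5.23, 4.98 and 6.85 against 1.27 and 0.874 (log2 -2.39 ± 0.44, edgeR adjusted p = 0.0819). CYP707A1 and CYP707A2, hydroxylases that break down abscisic acid, were on the other side. CYP707A1 had 7.44, 4.1 and 7.27 CPM in wild type and 14.7 and 14.5 in atg5, and CYP707A2 had 2.13, 2.44 and 2.56 against 5.69 and 7.96. COR47, the most abundant of the list, overlapped.

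The medians of defence, hormone and ageing lists stayed near that of all genes. Salicylic acid and defence (17 genes) had a median of 0.11, senescence (13) 0.05, jasmonate (22) -0.12, oxidative stress (19) 0.09 and carbon starvation (21) 0.06. Single members ranged further, from -4.2 to 1.93 in the jasmonate list and from -1.77 to 0.97 in the carbon starvation list. In each of those lists 6 members lay above wild type (18.9% of all genes) and 4 below (19%). DESeq2 called 1 jasmonate gene higher, and 1 carbon starvation gene higher and 1 lower, beside 1.58% and 1.61% of all genes. The most abundant members of the defence, hormone and ageing lists overlapped between the genotypes. EDS5, an exporter of salicylic acid precursor from plastids, had 15 to 17.8 CPM in wild type and 12.2 and 16.6 in atg5. The catalase CAT3 had 977 to 1096 against 798 and 991, MT2B, a metallothionein, 315 to 398 against 328 and 358, AOC4, a jasmonate synthesis cyclase, 53.3 to 63.1 against 37.3 and 60.9, and EXL2, a sugar-starvation gene, 131 to 155 against 79.3 and 246.

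Root hair genes were all positive, 14 of 14 with a median of 0.59, and in 7 the atg5 libraries lay above wild type (18.9% of all genes), but the smallest adjusted p of the list was 0.581 (edgeR). PRP3, a wall protein of root hairs, had 139, 87.1 and 70.7 CPM in wild type and 213 and 147 in atg5, so that the closest values nearly met. The summed level of the list was 378 to 606 CPM in wild type and 931 and 676 in atg5. Endodermis and other root cell genes (11) had a median of -0.14, with CASP1, which builds the Casparian strip, at 43.0 to 46.5 CPM against 29.5 and 43.3.

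Guard cell and stomatal lineage genes (11) had a median of -0.22, and 6 lay below wild type, beside 19% of all genes. EPF2, a peptide that restrains entry into the lineage, had 8.51, 6.25 and 7.77 CPM against 3.28 and 3.88 (edgeR adjusted p = 0.222), and ICE1, the most abundant of the list, 29.6 to 33.8 against 28.1 and 28.7. Cell division genes (24) had a median of -0.12, with the cytokinesis syntaxin KN at 26.5 to 36 CPM against 26.2 and 29.6. Expansins and XTH wall enzymes (23) had a median of 0.17 and EXPB3 as the single call. Aquaporins (23) had a median of -0.16, with TIP1;2 at 1053 to 1529 CPM against 757 and 1516.

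Genes of storage lipid breakdown and peroxisomes (25) had a median of 0.30. ICL, the isocitrate lyase of the glyoxylate cycle, had 1905, 1145 and 1534 CPM in wild type and 1883 and 8846 in atg5, so a single atg5 library stood far above the others. Flavonoid and anthocyanin genes (21) had a median of 0.28, with CHS, chalcone synthase, at 1016 to 1244 CPM against 613 and 1385. That median rested on atg5 3. As log2 deviation from each gene's mean over the 10 libraries, the list median was 0.86 there, -0.31 in atg5 1 and 0.10 to 0.33 in wild type. In 0 members the atg5 libraries lay above wild type and in 6 below (18.9% and 19% of all genes). DESeq2 called 0 higher and 3 lower (1.58% and 1.61% of all). MYBL2, a repressor of the pathway, had 5.64, 9.33 and 8.95 CPM against 2.75 and 1.31 (log2 -1.96 ± 0.55, edgeR adjusted p = 0.16).

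Nitrogen uptake and assimilation genes (24) had a median of -0.17. GS2, the plastid glutamine synthetase, had 625, 771 and 719 CPM against 433 and 446 (log2 -0.68 ± 0.30, edgeR adjusted p = 0.335). Iron and phosphate genes (19) had a median of -0.09, with the ferritin FER1 at 178, 207 and 237 CPM against 311 and 392. Glucosinolate genes (20) had a median of -0.43 and 11 members below wild type, beside 19% of all genes, while the myrosinase TGG1, their most abundant member, had 192 to 231 CPM against 186 and 210.

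The 26S proteasome list (30 genes: 28 subunits and the NAC transcription factors NAC053 and NAC2) had a median of 0.12. Of its members 12 lay above wild type, beside 18.9% of all genes, and 4 lay below, beside 19%. The subunit RPT1A, an ATPase of the regulatory particle, had 126 to 129 CPM against 149 and 124. Vacuolar and papain-like proteases (14) had a median of 0.13, with RD21A at 253 to 314 CPM in wild type and 239 and 608 in atg5.

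**Figure D5:**
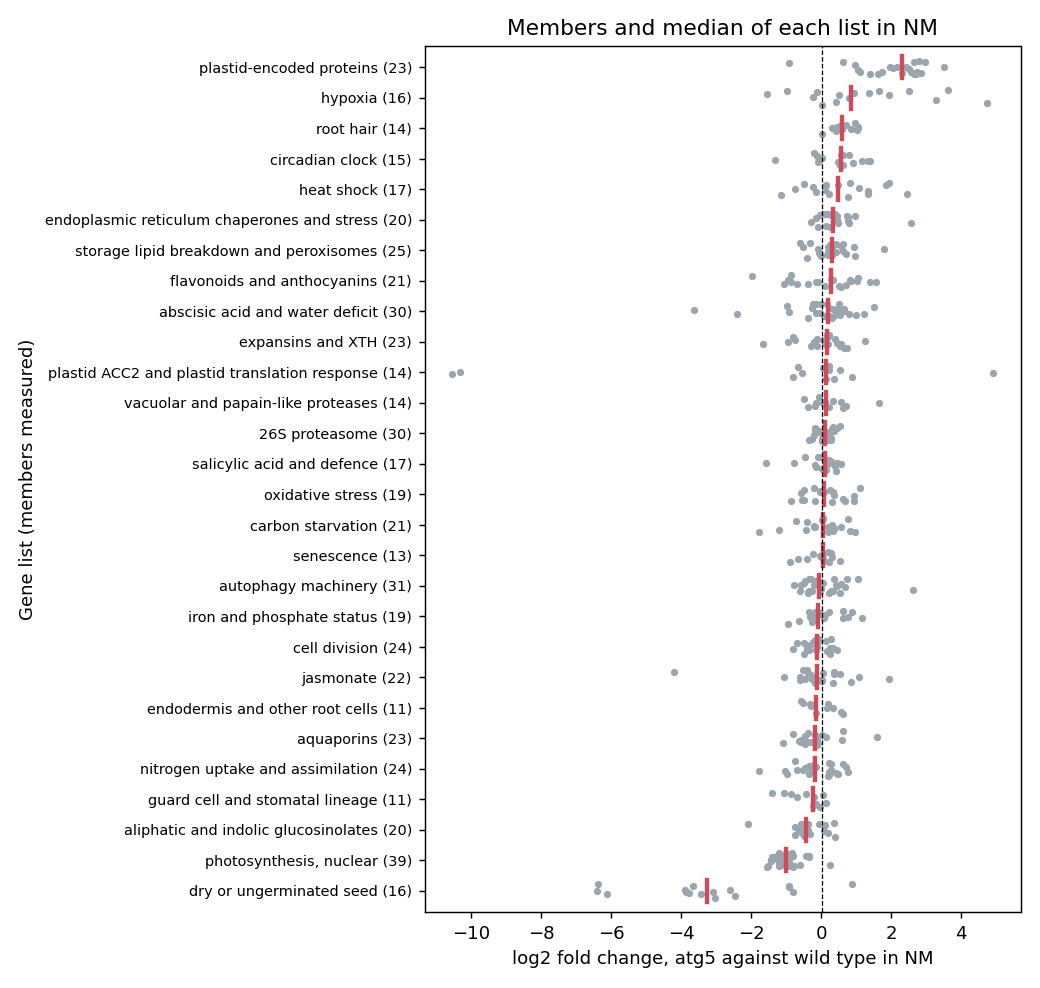
Log2 fold change of atg5 against wild type in NM for each member (grey points, spread vertically only to separate them) of the 28 gene lists, with the list median as a red bar and the median of all genes (0.03) as a dashed line. The dry-seed list (-3.26) and the nuclear photosynthesis list (-1.01) lie lowest and the plastid-encoded list (2.32) highest, and the points near -10 are PREP1 and PARC6.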

How the data were processed

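RNA of whole seedlings was sequenced as paired reads from a stranded mRNA kit, per the labels' protocols. The submitters' processing notes name bcl2fastq, Bowtie2, bedtools, DESeq2 and the TAIR10 build; their versions were not stated. The deposited tables, 1 per genotype, hold raw counts per gene. Per the file headers they also hold normalized values, a signal scaled by the authors in 10 columns not used here, and the authors' own log2 fold changes, test scores and p-values, also not used. The labels describe 12 samples and the tests were planned for them, but the count columns cover 10.

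The 19714 genes listed in both tables were fitted in all 10 libraries with edgeR 4.0.16 (R 4.3.3, limma 3.58.1), with TMM scaling, a quasi-likelihood test and 6 residual degrees of freedom. The filter on low counts removed 0 genes, and the biological coefficient of variation was 28.2%. Levels are CPM of TMM-scaled totals, fold changes are atg5 against wild type, and Benjamini-Hochberg adjusted p-values under 0.05 were called. On simulated counts for the NM comparison over 19714 genes, 81 of 100 genes changed by 2 on the log2 scale were recovered. Of 100 changed by 1, 6 were recovered, and 6 unchanged genes were called. The changed genes were drawn from those above 2 CPM in wild type. All other groups had the wild-type level, so the simulation lacks the differences among the atg5 WSM libraries and the trend with length. Alternatives were DESeq2 1.42.0, other scaling and filters, a length offset, the NM libraries alone and leaving out libraries. Overlap of exons was taken from TAIR10.1 (RefSeq), to which all 20780 IDs matched; 2204 genes overlapped another by at least 20%.

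The comparison and the 28 gene lists were chosen with earlier results of these data known. A list entry was used only where the annotation paired its locus with its symbol and both count tables listed it. This held for 572 of 641 entries. The rule for named genes took ATG5, PREP1, PARC6 and ATG2, the 12 largest rises and falls that passed the test at a mean level of 5 CPM or more, the called genes with the smallest p for the difference between media, called members of each list, and the most abundant member of a list without a call (the rule allowed 2). The other called genes, and the following, were chosen after their values were seen: CRA1, CRC, EM6, OLEO1, PSAK, PETE1, rpoC2, psaA, PDC1, SUS4, HRA1, HSP90.1, BIP1, CNX1, NAC103, ATG8F, ATG18H, GLK1, CPN10, LHY, ACC1, RAB18, RD29B, CYP707A1, CYP707A2, GI, EPF2 and MYBL2. Floors cover counting error only. Upstream sequences are printed for 5 called genes, and those of the others are not reported here.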

Additional observations from a re-analysis of the deposited data

Results flagged for a closer look

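From the called and otherwise named genes only, 8 are listed here. The other genes were not screened, so the share of all genes that do the same in both media is not known here. In NM alone 18.9% of all genes lay apart on the higher side and 19% on the lower. Those shares are for a single medium, so the count of 8 cannot be read against them. In these 8 the libraries of the genotypes did not overlap in either medium and lay in opposite directions. The difference itself was tested in edgeR, and none of them passed after adjustment.

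In NM, AT1G50659 had a log2 fold change of 2.64 and in WSM -0.56 (edgeR adjusted p of the difference 0.179). AT5G03668 had 2.09 and -0.33 (0.179), UPL1 1.5 and -0.52 (0.179), and DUO3 1.54 and -0.54 (0.179). BIP1, the lumenal chaperone, had 0.97 and -0.45 (0.194). Those 5 genes were higher in atg5 in NM and lower in WSM.

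The other 3 genes were lower in atg5 in NM and higher in WSM. ATG8F had a log2 fold change of -0.76 in NM and 0.71 in WSM (edgeR adjusted p of the difference 0.194). CPN10 had -0.66 and 0.38 (0.198), and ATG5 itself -0.29 and 0.43 (0.288).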

How the results depend on the processing

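None of the 29 called genes changed sign under any setting run. DESeq2 called 590 genes (292 higher, 298 lower), the NM libraries alone 240 (104, 136), and the fit lacking the atg5 WSM libraries with PREP1 counts 494 (235, 259). Requiring more than 1 CPM in each NM library left 14 (8, 6), an adjusted p under 0.01 left 2 (0, 2), and the length offset left 10 higher. With wild type 2 of NM and atg5 1 of WSM omitted, which had the most rRNA-region counts, 28 genes were lower. Leaving out 1 NM library gave 2 to 75 calls, 0 to 66 higher and 2 to 13 lower. The difference between media gave 408 calls in DESeq2 and 0 to 1 with a library left out. The 6 genes called in both media became 39 in DESeq2, 43 without the PREP1-count libraries, and 1 to 4 with a library left out. The causes were not tested.

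Replicate numbers were not used to pair the samples. Between the NM groups 1 number is shared, with a correlation of deviations of -0.19, and 1 pair cannot show whether the numbers mark a batch. Across all groups such correlations ran from -0.29 to 0.18. With the replicate block 0 genes were called, 0 higher and 0 lower. Under the block the log2 fold change reversed for COR47 (-0.10), CAT3 (0.10), TIP1;2 (0.03), ICE1 (0.11), PRP3 (-0.03), MT2B (0.58), TGG1 (0.35) and rbcL (-0.48).

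None of the other reversals was of a called gene. They were COR47 (-0.03), TIP1;2 (0.04) and MT2B (0.27) with the length offset, and TIP1;2 (0.03) and MT2B (0.04) without the rRNA-rich libraries. With 1 NM library left out, log2 fold changes on both sides of 0 were found for LHY (-1.02 to 1.22), AOC4 (-0.65 to 0.05), COR47 (-0.15 to 0.28), RD21A (-0.20 to 1.15), RPT1A (-0.04 to 0.22), TIP1;2 (-0.72 to 0.28), SHD (-0.42 to 0.29), EDS5 (-0.42 to 0.02), MT2B (-0.12 to 0.04), CHS (-0.86 to 0.32), TGG1 (-0.14 to 0.03), EXL2 (-0.83 to 0.81), rpoC2 (-0.01 to 4.45), psaA (-0.33 to 3.77) and rbcL (-1.64 to 1.83). With 2 atg5 libraries in NM, small changes are not resolved at this spread.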

Other observations

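Of 6 gene families grouped by product name and chosen after their values were seen, no gene was called in NM in edgeR. Of 348 ribosomal protein genes 279 had a negative log2 fold change, with a median of -0.37, and 209 had atg5 libraries below every wild-type one, beside 19% of all genes. Of 45 histone genes 35 were negative, with a median of -0.44. In WSM the medians were 0.03 and 0.29.

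Pentatricopeptide repeat genes, which process organelle RNA, had 149 of 195 positive, with a median of 0.25 in NM and -0.43 in WSM. Kinesin and myosin genes had a median of 0.30 (68 of 84 positive) and ABC transporters one of 0.18 (21 of 27). Peroxidases lay near all genes, with 29 of 53 positive and a median of 0.04. The families differ in length, with median exonic lengths of 995 bases for ribosomal protein genes, 884 for histones, 2338 for pentatricopeptide repeat genes, 2809 for kinesins and myosins, 2510 for ABC transporters and 1383 for peroxidases. With the length offset the medians, in that order, were -0.11, -0.15, 0.12, 0.09, 0.04 and 0.19.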
